A study of Drosophila melanogaster with 17 samples.

Results

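The transposon insertions described here are the rows of a head RNA-seq count table that carry a FlyBase insertion identifier and belong to any family other than INE-1, a short non-autonomous element. Of 5416 insertions among 23882 rows, 3180 belong to 126 such families, 2234 are INE-1 copies, and 2 with no name were left out. At least 10 counts over the 8 libraries were found for 1315 of the 3180 insertions, in 114 families, and these are described. A further 646 had 1 to 9 counts and 1219 had none, with 34 insertions at exactly 10 counts and 45 at exactly 9. The copy name gives the family before the braces and a copy number after them, as in copia{}293.

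RNA from heads of mated Drosophila melanogaster males was sequenced in 4 groups of 2 libraries: orco2 at day 40, w1118 at day 40, orco2 at day 3 and w1118 at day 3. orco2 is an allele of Orco, the co-receptor of the odorant receptors, and w1118 is the control line of the series, which carries a mutation of the eye colour gene w. Flies of both genotypes were kept under a 12 h light and 12 h dark cycle and sampled 8 h after lights on. The labels do not say whether the libraries come from separate cohorts, so p-values measure the spread between libraries, which may be technical.

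Transposons are mobile DNA segments. LTR and LINE-like retrotransposons spread through an RNA copy, whereas DNA transposons are cut out and reinserted by a transposase. In flies, Piwi proteins with piRNAs silence them mainly in the gonad and its supporting cells, while AGO2 with siRNAs acts in somatic tissue such as the head. The insertions listed are those of the reference strain, and the files do not say which of them either line carries.

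The libraries held 27082849 to 33932201 counts, of which the 3180 insertions took 0.124% to 0.193%. Orco itself was lower in orco2, with 1.02 ± 0.207 CPM (counts per 1000000 counts of TMM-scaled library size, mean ± SD, n = 2 libraries) in orco2 against 2.82 ± 0.316 in w1118 at day 40 (log2 fold change -1.47 ± 0.29 SE, adjusted p = 0.0174, edgeR quasi-likelihood test), and 1.63 ± 0.123 CPM in orco2 against 7.0 ± 1.14 in w1118 at day 3 (-2.10 ± 0.28, adjusted p = 0.00427). The w gene had 605 and 525 counts in orco2 against 13 and 8 in w1118 at day 40, and 934 and 851 in orco2 against 1 and 0 in w1118 at day 3. The lines therefore differ in RNA of w as well as of Orco. Whether the w difference comes with the allele was not tested, and allele and line background cannot be told apart. Of 11 listed head photoreceptor and neuron markers 10 were matched, and 3 of 4 germline markers, which summed to 1.78 to 5.40 CPM per library. The head markers moved with age, with 86438 to 91212 CPM at day 40 against 67741.5 to 68255 at day 3 in orco2, and 88196 to 92957.5 at day 40 against 52350 to 55112 at day 3 in w1118. The 12 testis markers summed to 164 to 187 CPM at day 40 against 264 to 384.5 at day 3 in orco2, and 229 to 267 at day 40 against 369.9 to 392 at day 3 in w1118. In orco2 the 11 gut enzyme markers summed to 398 and 418 CPM at day 40, against day 3 sums of 609 and 6.77 CPM in replicate 1 and replicate 2. In w1118 they summed to 84.0 and 485 CPM at day 40, against day 3 sums of 9.42 and 10.3 CPM. Of these gut markers 3 were at 0 in every library. The 7 listed fat body markers summed to 8116 to 9511 CPM in orco2 against 3514 to 4357 in w1118 at day 40, and to 4888 to 6655 in orco2 against 1410 to 1814 in w1118 at day 3. The part of these marker lists in the results by genotype and by age was not tested. The library orco2 day 3 replicate 1 had the highest gut marker sum and the highest share of insertion counts.

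LTR retrotransposons held 46.6% of the counts of all 3180 insertions, LINE-like elements 29.9%, inverted-repeat DNA transposons 21.7% and foldback elements 1.73%. By position in the Ensembl release 115 annotation (dm6 coordinates), 94 of the 1315 described insertions overlap an exon, 658 lie in an intron and 563 lie between genes. The small chromosome 4 carries 6.95% of the 3180 insertions and 27.5% of their counts, and 62.9% of its insertions reached 10 counts. Length went with detection: 66.6% of copies of 2000 bp or more reached 10 counts, against 22.0% of those under 500 bp. The sources used here do not give how reads that match several places were counted, so near-identical copies of a family may share or split reads and are not independent of each other. The library kit described does not mark strand, so reads of an insertion inside a transcribed gene cannot be told from reads of that gene.

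The 10 families with the most counts were, in order, copia, Cr1a, 1360, HeT-A, Doc, roo, H (the hobo element), opus, F and hopper2. Their summed counts ran from 62925 for copia, over 27 copies, to 7702 for hopper2, over 7. The copia sum per library was 345 and 368.5 CPM in orco2 against 275 and 230 in w1118 at day 40, and 361 and 283 CPM in orco2 against 107 and 121 in w1118 at day 3. The copia groups did not overlap between genotypes at either age. In whole heads, fewer cells of a type and less RNA per cell cannot be told apart. The roo sum, another LTR family, was 50.5 and 60.2 CPM in orco2 against 30.1 and 22.6 in w1118 at day 40, and 116 and 108 CPM in orco2 against 36.0 and 31.8 in w1118 at day 3, also without overlap. The sum of Cr1a, a LINE-like family, overlapped between genotypes at day 40, with 120 and 121 CPM in orco2 against 139 and 112 in w1118. The HeT-A sum, of a retrotransposon that maintains fly telomeres, overlapped at both ages, and its highest library was orco2 day 3 replicate 1 at 117 CPM. Over all 114 families, 34 sums were higher in orco2 at both ages or lower at both without overlap, 18 higher and 16 lower. That is 29.8% of families, while 30.2% of all 12243 tested features in the table did so, 16% higher and 14.3% lower.

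**Figure D1:**
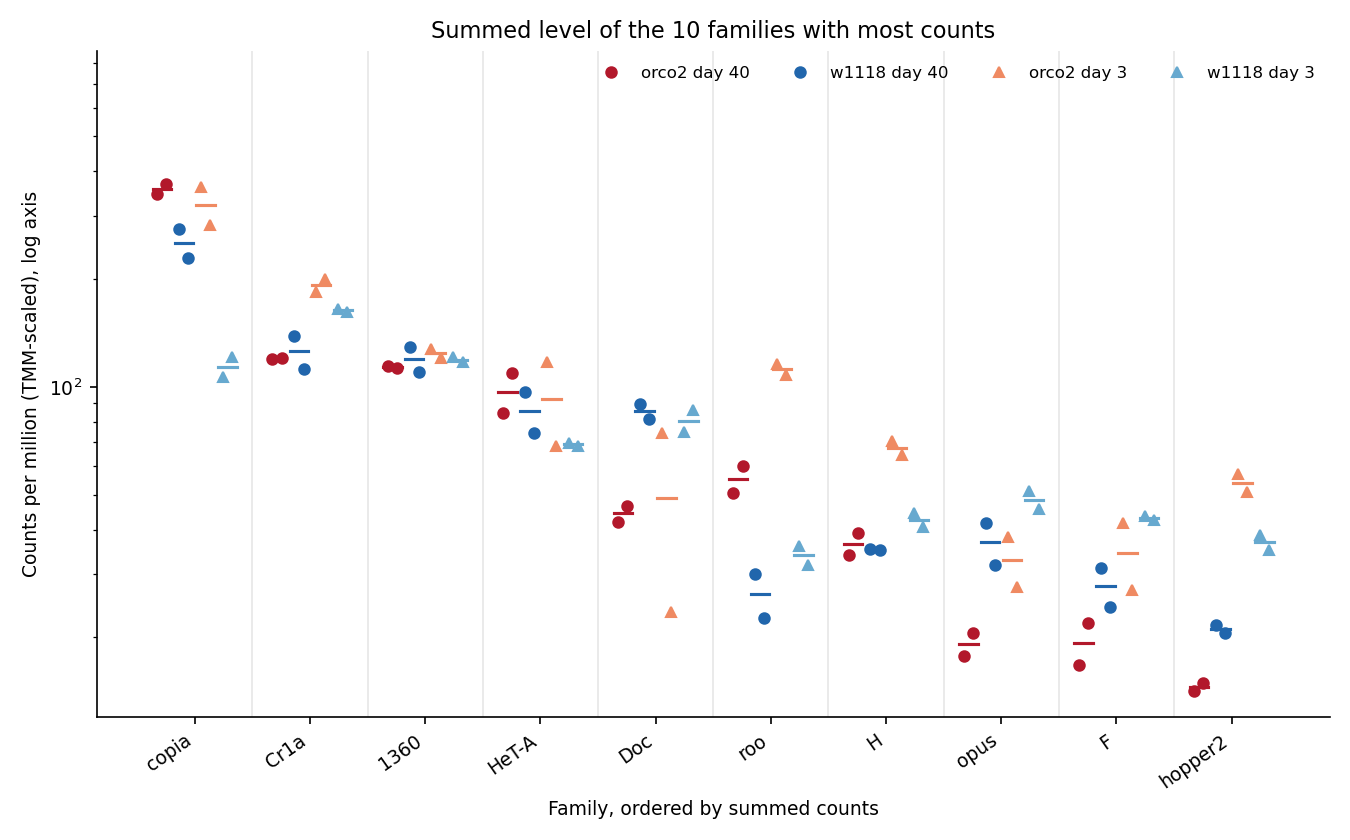
Summed level of the 10 transposon families with the most counts in each of the 8 head libraries, in CPM on a log axis, with 2 points and a bar at the mean for each group. The copia and roo points of orco2 lie above those of w1118 at both ages, whereas the HeT-A points overlap.

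The 10 most abundant single insertions were 4 copia copies, 2 Cr1a copies and 1 copy each of Doc, H, hopper2 and 1360. Per length, the shortest of them ranked first at 49.8 CPM per kb, the 606 bp hopper2{}4186 in an intron of nrv3, which encodes a subunit of the sodium pump. Cr1a{}6093 (chr4:455789-459194, intergenic) had the highest level, a mean of 60.5 CPM, and its genotype log2 fold change was -0.00 ± 0.14 at day 40 and 0.15 ± 0.14 at day 3, neither past the threshold of adjusted p = 0.05. Doc{}CHKov1[Doc1420], which overlaps an exon of CHKov1, had 877 and 1002 counts in orco2 against 2513 and 2283 in w1118 at day 40, and 1761 and 354 counts in orco2 against 1926 and 2343 in w1118 at day 3. Its day 3 orco2 libraries lay far apart from each other, and neither genotype difference passed (adjusted p = 0.240 at day 40 and 0.419 at day 3). CHKov1, a gene that in flies is known from work on insecticide and virus resistance, was itself lower in orco2, with a log2 fold change of -0.88 ± 0.13 at day 40 (adjusted p = 0.00557) and -0.65 ± 0.13 at day 3 (adjusted p = 0.0232).

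**Figure D2:**
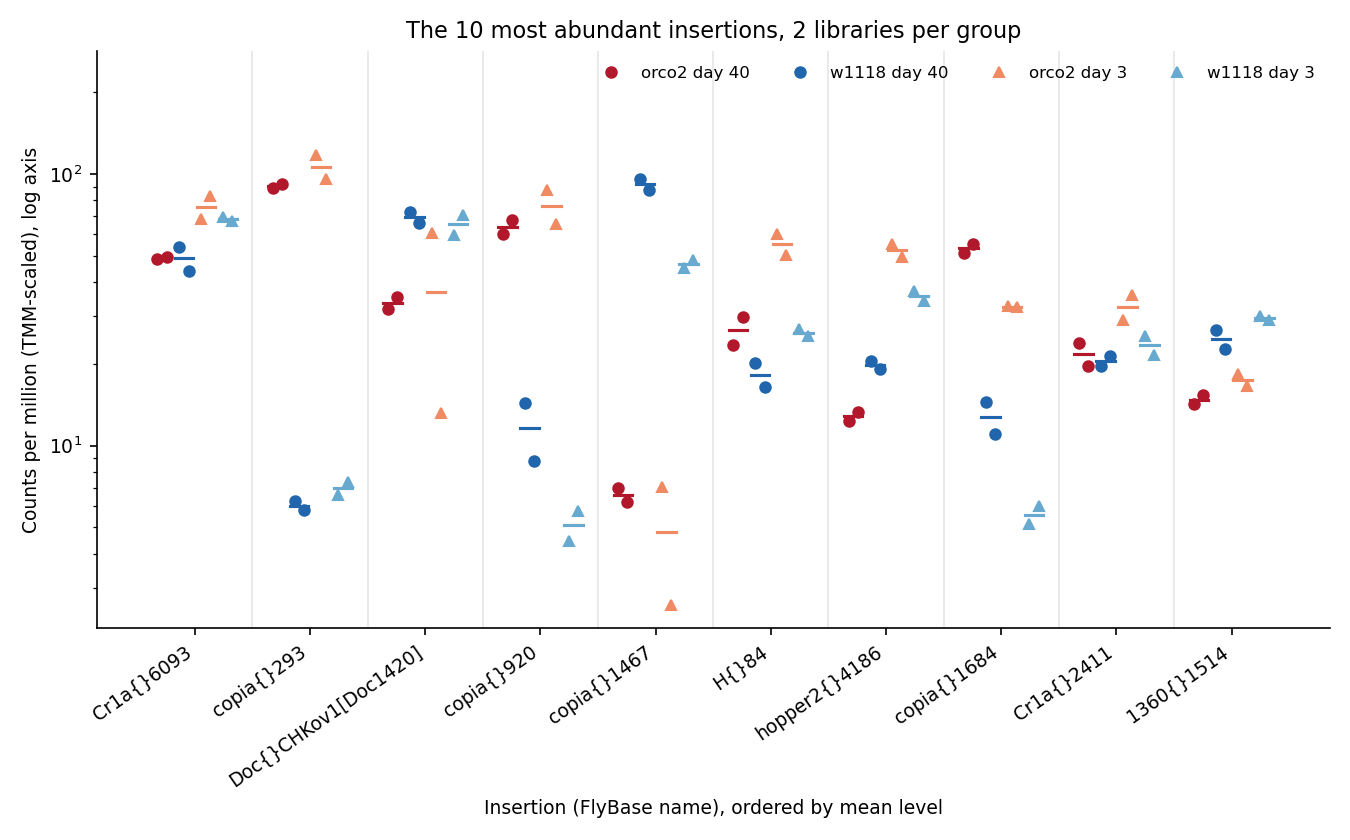
Level of the 10 insertions with the highest mean level, in CPM on a log axis, with 2 libraries per group and a bar at the group mean. copia{}293, copia{}920 and copia{}1684 were higher in orco2 at both ages, copia{}1467 was lower in orco2 at both ages, and the orco2 day 3 libraries of Doc{}CHKov1[Doc1420] lie far apart.

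The first comparison asks how insertion RNA differed between orco2 and w1118 heads of the same age. Of the 749 insertions that passed the filter on low counts, in 102 families, 50 were higher and 38 lower in orco2 at day 40, and 55 were higher and 23 lower at day 3. These are 11.7% of tested insertions at day 40, where 13% of all tested features passed (8.06% higher and 4.89% lower), and 10.4% at day 3, where 7.28% passed (4.85% higher and 2.43% lower). The filter left out 566 of the 1315 described insertions. The median log2 fold change was -0.04 over the tested insertions against -0.00 over all features at day 40, and 0.35 against 0.01 at day 3. How many of all tested features passed at both ages was not counted, so agreement between ages cannot be called particular to insertions. Among the insertions, 31 that were higher and 17 that were lower passed at both ages in the same direction, and 1, hopper2{}4186, passed in opposite directions. That copy lost its day 40 call without each of the 4 day 40 libraries (highest adjusted p = 0.177) and its day 3 call without any library other than the orco2 day 3 pair (highest adjusted p = 0.247). The counts moved with single libraries. At day 40 the 88 calls became 22 without w1118 day 40 replicate 1, 43 without its replicate 2, 28 and 24 without orco2 day 40 replicate 1 and replicate 2, 58 and 57 without w1118 day 3 replicate 1 and replicate 2, and 144 and 146 without orco2 day 3 replicate 1 and replicate 2. At day 3 the 78 calls became 31 and 29 without w1118 day 3 replicate 1 and replicate 2, 47 and 48 without orco2 day 40 replicate 1 and replicate 2, and 127 without orco2 day 3 replicate 1. Without each of the 8 libraries in turn, 19 insertions kept their call at day 40, 26 at day 3, and 17 at both ages in the same direction, 11 higher and 6 lower. Calls kept over all tested features were not counted. Insertions and families described below that are neither among the 10 most abundant nor among the extremes of a comparison were chosen after their values were seen.

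**Figure D3:**
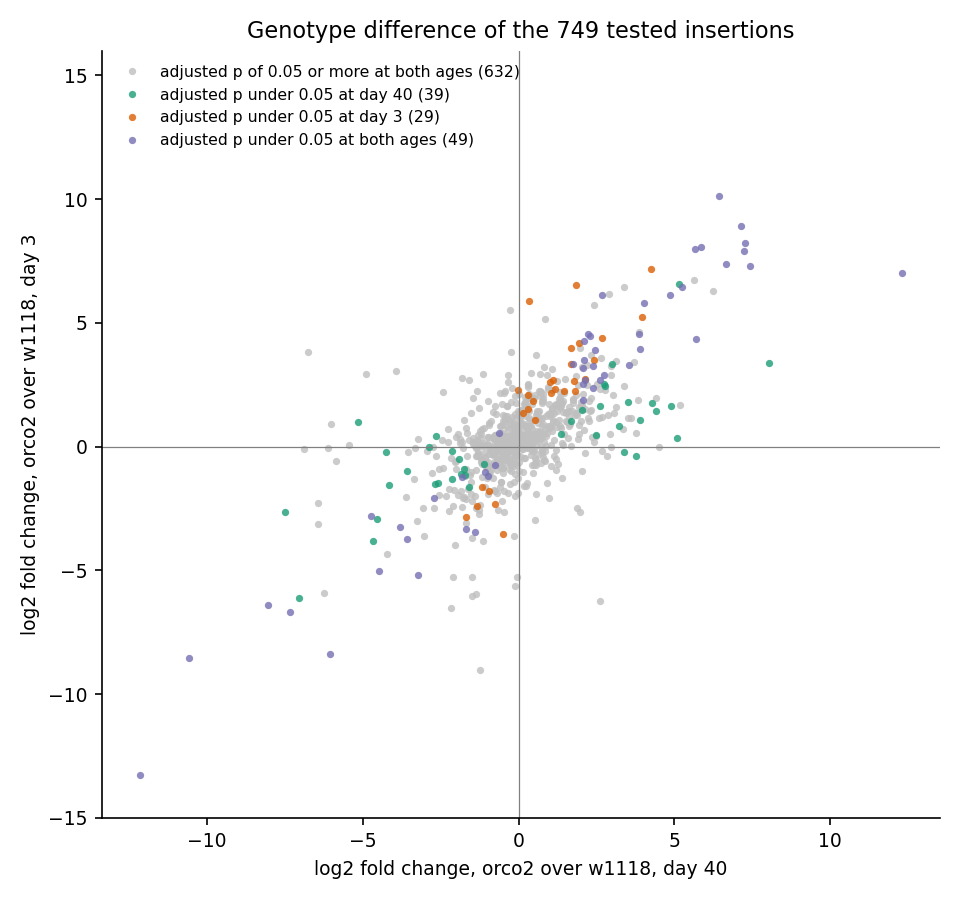
Genotype difference (log2 fold change, orco2 over w1118) of each of the 749 tested insertions at day 40 on the x axis and at day 3 on the y axis, with points coloured by adjusted p under 0.05. The 31 insertions higher and the 17 lower at both ages lie at the upper right and lower left, and 1 insertion past the threshold at both ages has opposite signs.

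Among DNA transposons, an S element in an intron of AGO2 had no count in orco2. S{}AGO2[S1008] (chr3L:15554974-15556705) had 0 and 0 counts in orco2 against 701 and 557 in w1118 at day 40, and 0 and 0 in orco2 against 1260 and 1328 in w1118 at day 3. With 3 counts over a group taken as the floor, it was at least 339-fold lower in orco2 at day 40 (adjusted p = 0.000145) and at least 738-fold lower at day 3 (adjusted p = 8.07e-05). AGO2, the Argonaute of the siRNA pathway, had a log2 fold change of -0.49 ± 0.12 at day 40 (adjusted p = 0.0330) and -0.41 ± 0.12 at day 3 (adjusted p = 0.0738). The 3 insertions most like S{}AGO2[S1008] over the 8 libraries were found by Pearson's r of log2 CPM, with 0.1 CPM added. They were pogo{}916 (r = 0.997), a hopper copy (FBti0019677) (r = 0.997) and springer{}59 (r = 0.979), a pair of DNA transposons and an LTR element. With S{}AGO2[S1008] at 0 in every orco2 library, r largely measures the step between genotypes.

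pogo{}916 (chr3L:3051802-3051984, 37 bp from CG32485) had 0 and 0 counts in orco2 against 228 and 204 in w1118 at day 40, at least 116-fold lower in orco2 (adjusted p = 0.000498). At day 3 it had 1 and 0 counts in orco2 against 287 and 238 in w1118, a ratio of 449 with a 95% counting interval of 80.3 to 17779 (adjusted p = 0.000510). The hopper copy, at chrX:21254758-21255285 in an intron of Mnr, had 0 and 0 counts in orco2 against 41 and 33 in w1118 at day 40, and 1 and 0 in orco2 against 57 and 65 in w1118 at day 3 (adjusted p = 0.00649 and 0.00645). Both were near absent from orco2 heads and present in every w1118 library. springer{}59, in an intron of rg and CG15465, had 0 and 4 counts in orco2 against 63 and 53 in w1118 at day 40 (-4.48 ± 0.87, adjusted p = 0.0160) and 1 and 2 in orco2 against 50 and 73 in w1118 at day 3 (a ratio of 35.1, 95% counting interval 11.7 to 172, adjusted p = 0.0150). Its call was lost at day 40 without w1118 day 40 replicate 1 or orco2 day 40 replicate 1 (highest adjusted p = 0.0955), and at day 3 without either w1118 day 3 library (highest adjusted p = 0.0879).

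Other DNA transposon copies showed the reverse. 1360{}94 (chrX:10101814-10102819), in an intron of the small GTPase gene RhoU, had 618 and 518 counts in orco2 against 0 and 0 in w1118 at day 40, at least 469-fold higher (adjusted p = 5.51e-05). At day 3 it had 550 and 577 counts in orco2 against 6 and 4 in w1118, a log2 fold change of 7.01 ± 0.29 (adjusted p = 6.52e-05). RhoU did not pass at either age (0.13 ± 0.17 at day 40 and -0.22 ± 0.17 at day 3, adjusted p = 0.663 and 0.507). HB{}276, in introns of fog and CG42346 on the X, had 63 and 40 counts in orco2 against 1 and 0 in w1118 at day 40, a ratio of 127 (95% counting interval 22.4 to 5084, adjusted p = 0.00456), and 188 and 276 in orco2 against 0 and 3 in w1118 at day 3, a ratio of 181 (61.5 to 880, adjusted p = 0.00180). The 1360 family sum overlapped between genotypes at both ages.

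Among LTR retrotransposons, copia, a family known to be mobile in flies, held copies that differed strongly in both directions. copia{}293 (chr2L:2294097-2299243, intergenic, 5147 bp) had 2455 and 2598 counts in orco2 against 216 and 200 in w1118 at day 40 (3.91 ± 0.14, adjusted p = 1.96e-05), and 3424 and 2559 in orco2 against 212 and 243 in w1118 at day 3 (3.94 ± 0.14, adjusted p = 1.83e-05). No orco2 library came near a w1118 library at either age. copia{}920, in an intron of Eip63E, had 1658 and 1920 counts in orco2 against 499 and 302 in w1118 at day 40, and 2546 and 1759 in orco2 against 143 and 191 in w1118 at day 3. Its log2 fold change was 2.47 ± 0.26 at day 40 (adjusted p = 0.00135) and 3.91 ± 0.28 at day 3 (adjusted p = 0.000358).

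copia{}1467, in an intron of the kinase gene Gprk2 (chr3R:31413145-31418286), ran the other way, with 193 and 176 counts in orco2 against 3326 and 3011 in w1118 at day 40 (-3.79 ± 0.38, adjusted p = 0.00106), and 206 and 69 in orco2 against 1449 and 1599 in w1118 at day 3 (-3.27 ± 0.37, adjusted p = 0.00212). copia{}293 and copia{}1467 thus moved in opposite directions in the same libraries. Another 4 copies, copia{}1684, copia{}631, copia{}49 and copia{}1391, were higher in orco2 at both ages by log2 fold changes of 2.06 to 2.40 at day 40 and 2.54 to 4.54 at day 3, and kept their calls without each library. Of the 26 tested copia copies, 6 were higher and 2 lower at day 40, with a median of 0.11. At day 3, 7 were higher and 2 lower, with a median of 0.89. Over all tested features, 8.06% were higher and 4.89% lower at day 40, and 4.85% higher and 2.43% lower at day 3. The number of higher copies stayed at 6 at day 40 and ran from 6 to 9 at day 3 when each library was left out in turn. The lower count at day 40 became 1 without w1118 day 40 replicate 1 or either orco2 day 40 library and 4 without either orco2 day 3 library, and at day 3 it became 1 without any library other than orco2 day 3 replicate 1.

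**Figure D4:**
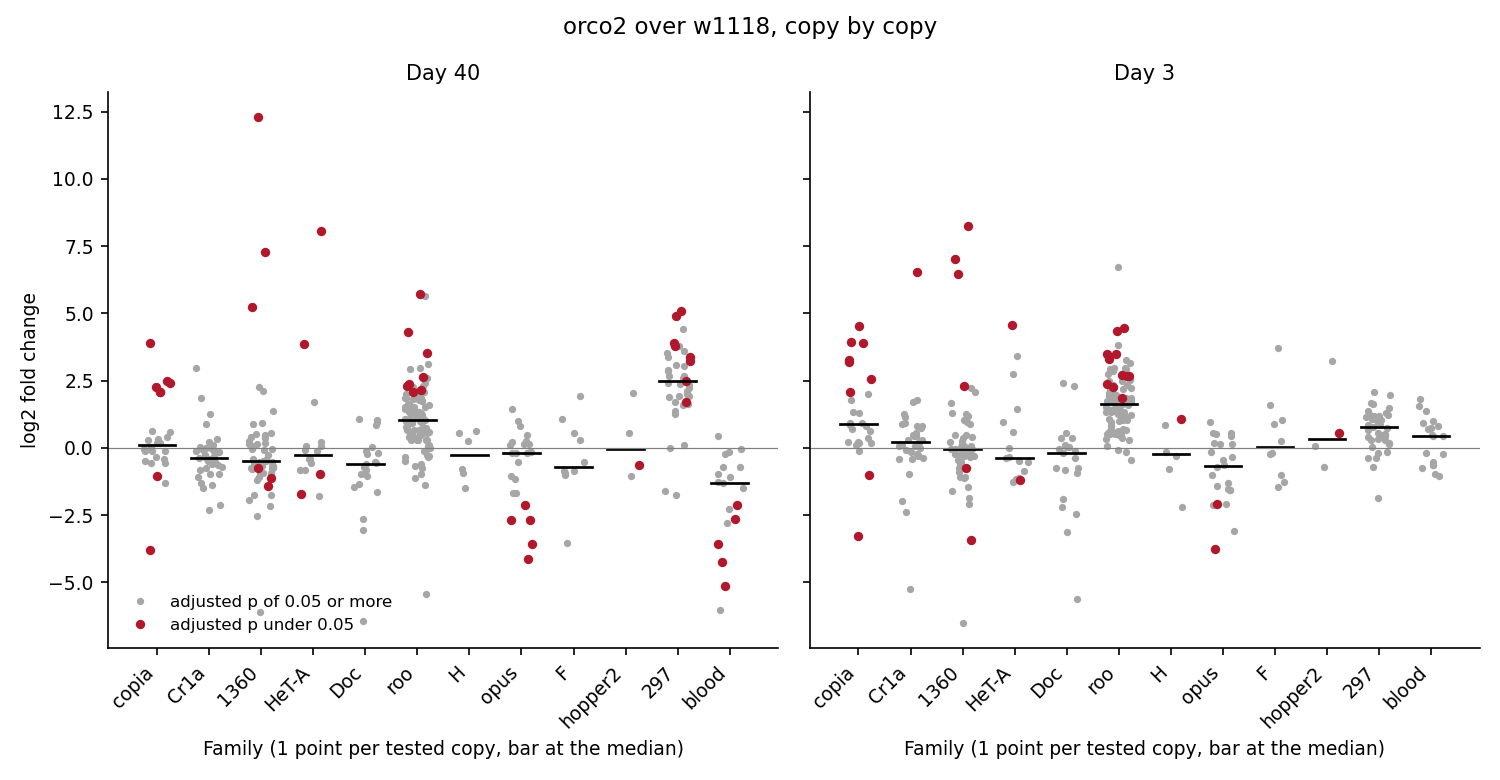
Genotype difference (log2 fold change, orco2 over w1118) of each tested copy in the 10 families with the most counts and in 297 and blood, at day 40 on the left and day 3 on the right, with bars at family medians and red points at adjusted p under 0.05. The roo and 297 medians lie above 0 at both ages, 297 copies past the threshold are seen at day 40 alone, and copia holds copies past the threshold of both signs.

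The log2 fold change of roo, the family with the most tested copies, was mostly positive. It was above 0 in 87 of 101 tested copies at day 40 and 98 of 101 at day 3, against 364 and 464 of the 749 tested insertions of all families. The median was 1.04 at day 40 and 1.65 at day 3. Past the threshold were 8 higher and 0 lower copies at day 40 and 11 higher and 0 lower at day 3. The 8 are 7.92% of the copies, near the 8.06% of all tested features that were higher at day 40, and the 11 are 10.9%, against 4.85% of all features at day 3. These counts rested on single libraries: at day 40 the 8 became 4 without either w1118 day 3 library, 1 without either w1118 day 40 library, and 2 and 1 without orco2 day 40 replicate 1 and replicate 2. At day 3 the 11 became 3 and 2 without w1118 day 3 replicate 1 and replicate 2, 7 without orco2 day 3 replicate 2 or either w1118 day 40 library, and 5 and 6 without orco2 day 40 replicate 1 and replicate 2. Since copies may share reads, the copies are not separate evidence of a difference. roo{}813, in an intron of the neuropeptide receptor gene Dh44-R2, kept its calls throughout. It had 69 and 69 counts in orco2 against 2 and 1 in w1118 at day 40 (a ratio of 56.9, 95% counting interval 19.1 to 279, adjusted p = 0.000976), and 107 and 108 in orco2 against 8 and 4 in w1118 at day 3 (4.36 ± 0.47, adjusted p = 0.00167). Dh44-R2 was lower in orco2 at day 40 (-0.73 ± 0.15, adjusted p = 0.0212), and at day 3 its log2 fold change of -0.55 ± 0.15 did not pass (adjusted p = 0.0767).

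Other LTR families had smaller sets. Burdock summed to 12.9 and 14.3 CPM in orco2 against 4.21 and 2.29 in w1118 at day 40, and 18.4 and 11.5 in orco2 against 1.99 and 2.54 in w1118 at day 3. Its strongest copy, Burdock{}1221, lies in an intron of CG14669 on chr3R:5446016-5452418, 33610 bp from Orco. It had 116 and 110 counts in orco2 against 2 and 1 in w1118 at day 40 (a ratio of 93.3, 95% counting interval 31.5 to 456, adjusted p = 0.00135), and 172 and 86 in orco2 against 0 and 0 in w1118 at day 3 (at least 100.5-fold higher, adjusted p = 0.00108). CG14669 had log2 fold changes of 0.00 at both ages. Of the 7 described insertions within 300000 bp of Orco, 5 were tested, and the other 4 of these did not pass at either age.

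rooA{}1506, in an intron of the calcium pump gene PMCA on chr4:344055-346552, had 1430 and 1476 counts in orco2 against 530 and 544 in w1118 at day 40 (1.74 ± 0.14, adjusted p = 0.000481), and 426 and 442 in orco2 against 45 and 56 in w1118 at day 3 (3.33 ± 0.16, adjusted p = 4.55e-05). 3S18{}853, in an intron of GEFmeso, was lower in orco2, with 8 and 12 counts in orco2 against 336 and 324 in w1118 at day 40 (-4.72 ± 0.32, adjusted p = 0.000293), and 38 and 27 in orco2 against 304 and 225 in w1118 at day 3 (-2.80 ± 0.28, adjusted p = 0.00131). opus{}861 was lower too, with a log2 fold change of -3.56 ± 0.53 at day 40 (adjusted p = 0.00558) and -3.75 ± 0.54 at day 3 (adjusted p = 0.00582).

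The remaining extremes rest on fewer counts. Lower in orco2 were S2{}1603, Rt1b{}999 and mdg1{}305, with 0 to 5 counts per orco2 library against 11 to 106 per w1118 library. S2{}1603 kept its day 3 call without each library and lost its day 40 call without w1118 day 40 replicate 1 (adjusted p = 0.0566). Higher in orco2 at both ages were invader4{}1669, 1360{}1463, hopper{}1383, TART-B{}1567, Burdock{}320 and TART-A{}6259, with 6 to 62 counts per orco2 library against 0 or 1 per w1118 library. TART is a telomeric retrotransposon like HeT-A. invader4{}1669 kept its day 3 call without each library, with 48 and 62 counts in orco2 against 0 and 0 in w1118, at least 42.8-fold higher, and lost its day 40 call without each of the 4 day 40 libraries (highest adjusted p = 0.0928). The calls of Rt1b{}999, mdg1{}305, 1360{}1463, hopper{}1383, TART-B{}1567, Burdock{}320 and TART-A{}6259 were lost at day 40 without each of the w1118 and orco2 day 40 libraries, and at day 3 without each w1118 day 3 library. Past the threshold at day 40 alone among the extremes were S2{}1120 and jockey{}1451, lower, and HeT-A{}4617, higher, with 19 and 41 counts in orco2 against 0 and 0 in w1118. S2{}1120 lost that call without 5 of the 8 libraries, jockey{}1451 without 6 and HeT-A{}4617 without w1118 day 40 replicate 1 or orco2 day 40 replicate 2.

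Telomeric HeT-A copies differed in both directions. HeT-A{}5504 on the X had 171 and 289 counts in orco2 against 15 and 24 in w1118 at day 40 (3.85 ± 0.55, adjusted p = 0.00498), and 702 and 231 in orco2 against 23 and 22 in w1118 at day 3 (4.56 ± 0.56, adjusted p = 0.00271). Its day 40 call was lost without w1118 day 40 replicate 1 (adjusted p = 0.0677). Of 16 tested HeT-A copies 2 were higher and 2 lower at day 40, against 8.06% and 4.89% of all tested features. The higher count became 0 without w1118 day 40 replicate 1, 1 without orco2 day 40 replicate 2 and 3 without either orco2 day 3 library. The lower count became 0 without w1118 day 40 replicate 1 or either orco2 day 40 library, and 1 without w1118 day 40 replicate 2 or either w1118 day 3 library. The gene nearest to it, lncRNA:CR40469, 6086 bp away, was higher in orco2 by 5.95 ± 0.30 at day 40 and 6.16 ± 0.32 at day 3 (adjusted p = 7.26e-05 and 6.52e-05).

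Insertions without a count in one genotype were found both ways. Of the 1315 described insertions, 25 (1.90%) were at 0 in all 4 orco2 libraries and 27 (2.05%) in all 4 w1118 libraries. INE-1 copies gave 14 and 12 of 707, and genes other than insertions gave 131 and 53 of 13077. Among tested insertions of the X, 20.4% passed at day 40 and 18.4% at day 3, against 11.7% and 10.4% over all tested insertions. Insertions of the third chromosome's left arm, which holds AGO2, passed in 12.1% and 11.3%. Those of its right arm, which holds Orco, passed in 16.5% at day 40 and 11.01% at day 3. On 2L, 2R and chromosome 4 the shares were 7.61% to 9.09% at day 40 and 6.72% to 8.70% at day 3. Over all tested features 13% passed at day 40 and 7.28% at day 3. The shares by arm were not tested against each other.

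Of 42 intronic insertions called between genotypes at day 40, the surrounding gene was called in the same direction for 3, in the opposite direction for 8 and not called for 31. Of 45 at day 3, 0 had a gene called in the same direction, 1 in the opposite, 43 had a gene that was not called and 1 a gene that was not tested. A surrounding gene was called for 26.2% of the 42 at day 40, against 12.1% of the 347 tested intronic insertions that were not called and 13% of all features. At day 3 this was 2.22% of the 45, against 3.49% of 344 insertions that were not called and 7.28% of all features. No test was run on these shares. A gene that was not called may still differ.

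The second comparison asks how insertion RNA differed between day 40 and day 3 within each genotype. In orco2, 25 tested insertions were higher and 50 lower at day 40, or 10% of the 749, where 24.2% of all tested features passed (12.8% higher and 11.4% lower). In w1118, 36 were higher and 21 lower, or 7.61%, where 15.8% of all features passed (8.56% higher and 7.23% lower). Both shares are below those over all features. The median log2 fold change was -0.46 over insertions against -0.01 over all features in orco2, and -0.11 against 0.04 in w1118. In both genotypes 14 insertions rose and 8 fell with age, and 0 moved in opposite directions. How many of all tested features did so was not counted. In orco2 the 75 calls became 11 and 25 without orco2 day 40 replicate 1 and replicate 2, and 47 without either w1118 day 3 library. In w1118 the 57 calls became 11 and 19 without w1118 day 3 replicate 1 and replicate 2, 20 and 23 without w1118 day 40 replicate 1 and replicate 2, and 100 and 99 without orco2 day 3 replicate 1 and replicate 2. Without each library in turn 7 insertions kept their call in orco2 and 8 in w1118, and 4 rose in both.

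Those 4 were rooA{}1506, Doc3-element{}619, GATE{}1672 and 1360{}Eph[1520]. rooA{}1506, with the counts given above, rose by 1.74 ± 0.14 in orco2 (adjusted p = 0.000513) and 3.32 ± 0.16 in w1118 (adjusted p = 5.17e-05). PMCA, whose intron holds it, fell in both, by 0.69 ± 0.12 in orco2 (adjusted p = 0.00707) and 0.56 ± 0.12 in w1118 (adjusted p = 0.0215). 1360{}Eph[1520], in an intron of the ephrin receptor gene Eph, had 382 and 418 counts at day 40 against 126 and 142 at day 3 in orco2 (1.57 ± 0.19, adjusted p = 0.00176), and 654 and 536 at day 40 against 164 and 140 at day 3 in w1118 (1.88 ± 0.19, adjusted p = 0.00135). Eph itself did not pass (-0.14 ± 0.12 in orco2, adjusted p = 0.436, and -0.07 ± 0.12 in w1118, adjusted p = 0.724).

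Doc3-element{}619, a LINE-like copy, belongs to a row of insertions on chromosome arm 2R between CG3107 and gus. It had 74 and 93 counts at day 40 against 6 and 2 at day 3 in orco2 (4.35 ± 0.47, adjusted p = 0.00123), and 374 and 243 at day 40 against 15 and 14 at day 3 in w1118 (4.31 ± 0.41, adjusted p = 0.000980). The interval chr2R:5095091-5116989 holds 12 of the insertions, 8 of them tested. Of the 8, 3 rose with age in orco2 and 4 in w1118, against 12.8% and 8.56% of all tested features. The interval was drawn around insertions already named for rising with age, so these shares cannot test whether it stands out. opus{}2511, with 0 to 2 counts per day 3 library, passed the filter on low counts only through its w1118 day 40 counts of 28 and 28. In at least 1 genotype 5 of the 8 rose, and 0 fell. Besides Doc3-element{}619 these were opus{}2511 in both genotypes, Fw2{}2920 and Idefix{}2604 in w1118, and jockey2{}2577 in orco2. Idefix{}2604 had 9 and 6 counts at day 40 against 8 and 1 at day 3 in orco2, and 55 and 47 at day 40 against 2 and 0 at day 3 in w1118. The genes at both ends went the other way or did not pass: CG3107 fell by 0.41 ± 0.11 in orco2 (adjusted p = 0.0293), and gus had a log2 fold change of -0.20 ± 0.10 in orco2 and -0.31 ± 0.10 in w1118 (adjusted p = 0.195 and 0.0822). Idefix{}2604 lost its call without each of the 4 w1118 libraries, Fw2{}2920 without w1118 day 3 replicate 1 or either w1118 day 40 library, opus{}2511 in w1118 without any library other than the orco2 day 3 pair and in orco2 without any other than the w1118 day 3 pair, and jockey2{}2577 without any library other than orco2 day 3 replicate 2.

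GATE{}1672 and gypsy8{}3747, neighbouring LTR copies on 2R, both rose as well. GATE{}1672 had 190 and 187 counts at day 40 against 13 and 24 at day 3 in orco2 (3.33 ± 0.53, adjusted p = 0.00452), and 130 and 80 at day 40 against 13 and 4 at day 3 in w1118 (3.52 ± 0.57, adjusted p = 0.00641). gypsy8{}3747 rose by 2.77 ± 0.43 in orco2 (adjusted p = 0.00399) and 3.14 ± 0.48 in w1118 (adjusted p = 0.00533), and its w1118 call was lost without w1118 day 3 replicate 1 (adjusted p = 0.0590). The gene nearest to both, lncRNA:CR42646, 131 bp from GATE{}1672, had 38 and 58 counts at day 40 against 6 and 0 at day 3 in orco2 (3.97 ± 0.88, adjusted p = 0.0150) and 71 and 72 at day 40 against 3 and 4 at day 3 in w1118 (4.22 ± 0.86, adjusted p = 0.0156). On 2L, Cr1a{}1575 and 1360{}1967 lie 1133 and 128 bp from lncRNA:CR44809, which rose by 4.44 ± 0.46 in orco2 and 4.38 ± 0.47 in w1118 (adjusted p = 0.00115 and 0.00148). Cr1a{}1575 had 27 and 16 counts at day 40 against 2 and 1 at day 3 in orco2, and 28 and 29 at day 40 against 0 and 2 at day 3 in w1118. It passed in both genotypes (adjusted p = 0.0234 in orco2 and 0.0184 in w1118), and lost its w1118 call without w1118 day 3 replicate 1 or either w1118 day 40 library and its orco2 call without any library other than the w1118 day 3 pair. 1360{}1967 passed in orco2 and not in w1118, with 21 and 20 counts at day 40 against 2 and 1 at day 3 in orco2 (a ratio of 13.7, 95% counting interval 4.36 to 69.0, adjusted p = 0.0153), and lost its call without orco2 day 3 replicate 2 or either orco2 day 40 library.

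Most copia copies had a higher level at day 40 than at day 3 in both genotypes, whereas the copia sums given above overlapped between ages in orco2 and not in w1118. The log2 fold change between ages was positive in 24 of 26 tested copies in orco2, with a median of 0.55, and in 25 of 26 in w1118, with a median of 1.32. Over the 749 tested insertions of all families it was positive in 259 in orco2 and 335 in w1118. Since copies may share reads, the copies are not separate evidence of a difference. Past the threshold, 12.8% of all tested features were higher at day 40 in orco2 and 8.56% in w1118. Of the 26 copia copies, 5 passed in orco2 and 16 in w1118, all higher at day 40. The orco2 count became 0 without orco2 day 40 replicate 1, and 2 without orco2 day 40 replicate 2 or any w1118 library. The w1118 count became 3 and 6 without w1118 day 3 replicate 1 and replicate 2 and 5 without w1118 day 40 replicate 1. copia{}631, in an intron of Nipped-A, had 1014 and 1177 counts at day 40 against 1341 and 716 at day 3 in orco2 (0.10 ± 0.27, adjusted p = 0.805), and 315 and 257 at day 40 against 40 and 62 at day 3 in w1118 (2.40 ± 0.31, adjusted p = 0.00262). The orco2 values overlapped between ages and the w1118 values did not, and the difference between the genotypes did not pass the interaction test given below. copia{}293 did not pass in either genotype (-0.24 ± 0.13 in orco2, adjusted p = 0.205, and -0.21 ± 0.14 in w1118, adjusted p = 0.341).

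**Figure D5:**
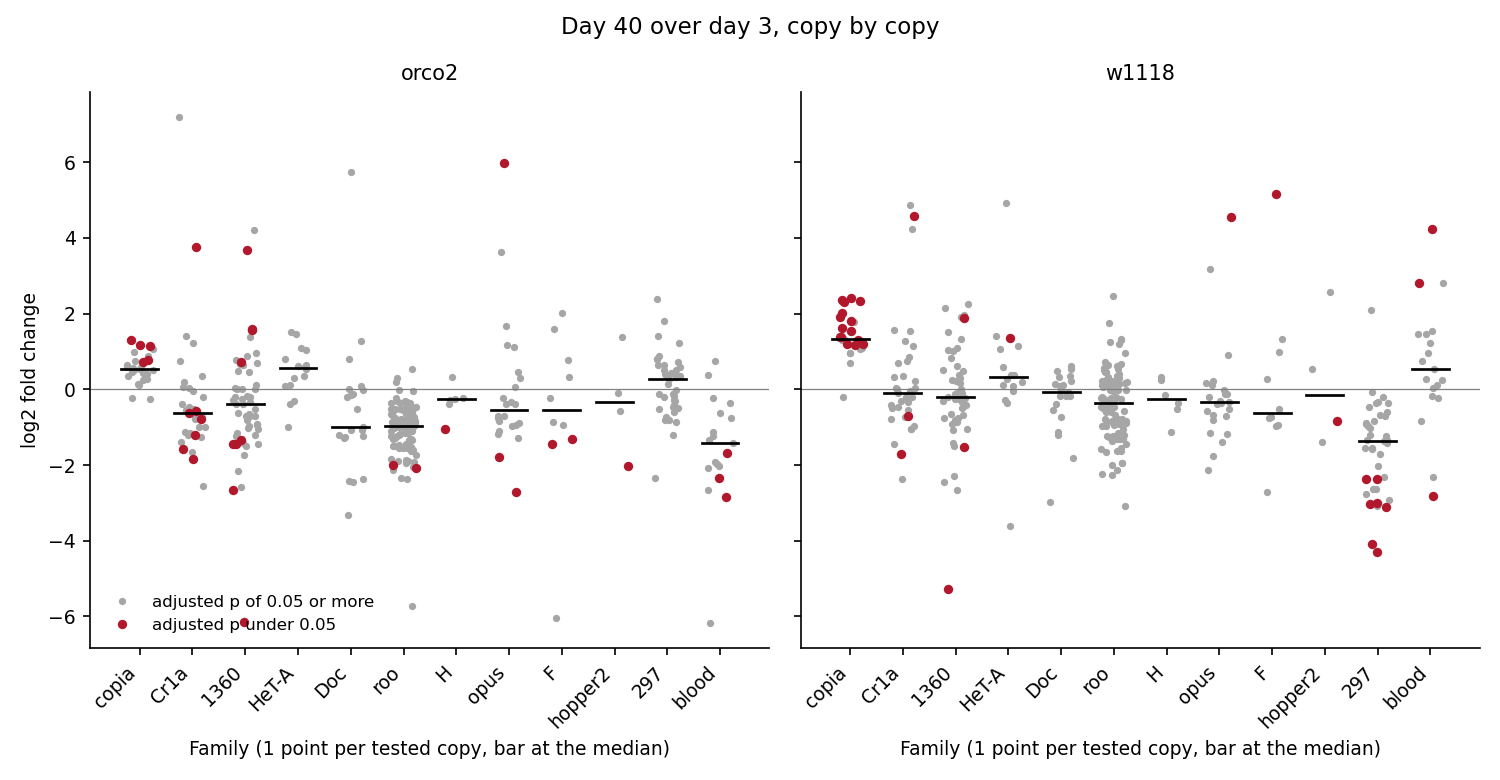
Age difference (log2 fold change, day 40 over day 3) of each tested copy in the 10 families with the most counts and in 297 and blood, with orco2 on the left and w1118 on the right, bars at family medians and red points at adjusted p under 0.05. copia copies lie mostly above 0 in both genotypes, and the 297 copies past the threshold lie below 0 in w1118.

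Of the LTR family 297, some copies fell with age in w1118. In orco2 the family summed to 38.1 and 42.1 CPM at day 40, within the day 3 values of 46.9 and 25.1. In w1118 it summed to 9.41 and 9.74 CPM at day 40, below the day 3 values of 25.4 and 22.7. Of 39 tested copies, 7 fell in w1118 with 0 rising, while 7.23% of all tested features fell there and 8.56% rose. The 7 became 1 without any w1118 library, 2 without either orco2 day 40 library and 10 and 11 without orco2 day 3 replicate 1 and replicate 2. 297{}1289 had 84 and 115 counts at day 40 against 100 and 48 at day 3 in orco2, and 5 and 2 at day 40 against 48 and 88 at day 3 in w1118 (-4.30 ± 0.62, adjusted p = 0.00397), and kept that call without each library. The same copy was higher in orco2 than in w1118 at day 40 by 5.08 ± 0.62 (adjusted p = 0.00248), a comparison that shares the w1118 day 40 libraries. Between genotypes at day 40, 8 of the 39 copies were higher in orco2 and 0 lower, against 8.06% and 4.89% of all tested features. Those 8 became 1 and 3 without w1118 day 40 replicate 1 and replicate 2, 2 and 1 without orco2 day 40 replicate 1 and replicate 2, and 18 and 19 without orco2 day 3 replicate 1 and replicate 2.

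The summed level of the LTR family blood did not overlap between genotypes at day 40. It was 11.4 and 10.2 CPM in orco2 against 39.1 and 23.0 in w1118 at day 40, and 29.0 and 16.3 CPM in orco2 against 24.6 and 27.0 in w1118 at day 3, where the groups overlapped. Of its 19 tested copies 5 were lower and 0 higher in orco2 at day 40, against 4.89% and 8.06% of all tested features. The 5 became 0 without w1118 day 40 replicate 1 or orco2 day 40 replicate 2, 1 without orco2 day 40 replicate 1, and 2 without w1118 day 40 replicate 2 or either w1118 day 3 library.

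Insertions that fell with age in orco2 included 412{}880, in an intron of the cotransporter gene kcc, with 17 and 8 counts at day 40 against 127 and 108 at day 3 in orco2 (-3.21 ± 0.48, adjusted p = 0.00352), and 3 and 4 at day 40 against 7 and 7 at day 3 in w1118 (-1.05 ± 0.60, adjusted p = 0.278). kcc fell by 1.27 ± 0.13 in orco2 and 1.18 ± 0.13 in w1118 (adjusted p = 0.00107 and 0.00152). hopper2{}4186 had 340 and 378 counts at day 40 against 1615 and 1326 at day 3 in orco2 (-2.03 ± 0.13, adjusted p = 0.000216), and 709 and 662 at day 40 against 1193 and 1129 at day 3 in w1118 (-0.84 ± 0.12, adjusted p = 0.00405). The w1118 call was lost without w1118 day 3 replicate 1 (adjusted p = 0.0558). Its host gene nrv3 fell by 1.29 ± 0.13 in orco2 and 1.22 ± 0.13 in w1118 (adjusted p = 0.00104 and 0.00144). Of 40 intronic insertions called with age in orco2, the surrounding gene was called in the same direction for 20, in the opposite for 5 and not called for 15. In w1118 these numbers were 4, 4 and 20 of 29, with 1 gene not tested. A surrounding gene was called for 62.5% of the 40 in orco2, against 44.4% for the 349 intronic insertions that were not called and 24.2% of all features, and for 27.6% of the 29 in w1118, against 26.4% for 360 that were not called and 15.8% of all features. No test was run on these counts.

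The remaining extremes of the age comparison had few counts. Stalker4{}1446 fell in orco2, with 2 and 1 counts at day 40 against 34 and 21 at day 3 (adjusted p = 0.00719), and G3{}1, 412{}1375, 412{}CG33267[iso-1] and 1360{}4113 fell there too, with 0 to 2 counts per day 40 library. baggins{}687 was listed at 0 in all day 3 libraries and had 13 and 10 counts at day 40 in orco2 (adjusted p = 0.0486). In w1118, accord2{}5034 had 29 and 17 counts at day 40 against 0 and 0 at day 3 (adjusted p = 0.0370), and F{}4636, in an intron of the piRNA-pathway gene AGO3, had 25 and 23 at day 40 against 1 and 0 at day 3 (adjusted p = 0.0105). F{}4636 lost its call without w1118 day 3 replicate 2 or w1118 day 40 replicate 2, Stalker4{}1446 without either orco2 day 40 library, and the others without 5 or more of the 8 libraries. baggins{}687 was not tested without either orco2 day 40 library and held no call in any of the other fits.

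Whether the age difference depended on genotype was tested with the interaction term. By edgeR's quasi-likelihood test 0 of 749 insertions passed, and 1 of the 12243 features did (0.00817%). At an unadjusted p under 0.05 there were 87 insertions, the DESeq2 Wald test called 9, and edgeR without the filter on low counts called 10. The count became 9 and 14 without orco2 day 3 replicate 1 and replicate 2. The median interaction log2 fold change was -0.37 over insertions against -0.03 over all features.

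A list of 50 gene symbols of the piRNA and siRNA pathways and of heterochromatin was set beside the insertions. Of these, 46 were matched and 40 tested. Between genotypes, 0 were higher and 2 lower in orco2 at day 40 and 0 higher and 1 lower at day 3. The lower genes are 5% of those tested at day 40 and 2.5% at day 3, near the 4.89% and 2.43% of all features that were lower. papi, a Tudor protein of piRNA processing, was lower at both ages, with 1300 and 1387 counts in orco2 against 2307 and 2095 in w1118 at day 40 (-0.40 ± 0.10, adjusted p = 0.0397) and 1413 and 1395 in orco2 against 2361 and 2516 in w1118 at day 3 (-0.57 ± 0.10, adjusted p = 0.0150). The other was AGO2 at day 40, with 5161 and 5282 counts in orco2 against 9192 and 8911 in w1118. With the replicate number as a block, neither passed at day 40 (adjusted p = 0.0676 for papi and 0.0527 for AGO2), and the single gene called there was mino, which was higher in orco2 (0.81, adjusted p = 0.0447). The list's median log2 fold change was -0.09 at both ages, against -0.00 over all features at day 40 and 0.01 at day 3. The day 40 count became 0 without any w1118 or orco2 day 40 library and 11 and 10 without orco2 day 3 replicate 1 and replicate 2. The day 3 count became 0 without either w1118 day 3 library and 7 and 3 without orco2 day 3 replicate 1 and replicate 2.

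With age, 6 genes of the list rose and 2 fell in orco2, and 4 rose and 1 fell in w1118. In either direction these are 20% of the tested genes in orco2 and 12.5% in w1118, below the 24.2% and 15.8% of all features called. The genes that rose are 15% in orco2 and 10% in w1118, against 12.8% and 8.56% of all features. Those that fell are 5% and 2.5%, against 11.4% and 7.23%. vret and mino, which act in piRNA biogenesis, rose in both genotypes. vret had 72 and 61 counts at day 40 against 11 and 12 at day 3 in orco2 (2.52 ± 0.42, adjusted p = 0.00526), and 64 and 88 at day 40 against 17 and 13 at day 3 in w1118 (2.25 ± 0.41, adjusted p = 0.0101). piwi, the nuclear Piwi protein, had 14 and 33 counts at day 40 against 23 and 10 at day 3 in orco2 (0.52 ± 0.55, adjusted p = 0.533), and 127 and 96 at day 40 against 17 and 20 at day 3 in w1118 (2.50 ± 0.54, adjusted p = 0.0196). krimp rose in w1118 as well (3.37 ± 0.60, adjusted p = 0.00892). Neither piwi nor krimp passed the interaction test (-1.98 ± 0.77 for piwi and -1.97 ± 0.78 for krimp, adjusted p = 0.465 for each). In orco2 the other genes that rose were Hen1, the methyltransferase of small RNA ends, nxf2, Marf1 and the gene of heterochromatin protein HP1a (FBgn0003607). Their edgeR adjusted p was 0.0314, 0.0342, 0.0105 and 0.00793 in that order. With the replicate number as a block, nxf2 did not pass (adjusted p = 0.0560). Gasz fell in both genotypes, in orco2 close to the threshold (edgeR adjusted p = 0.0494 in orco2 and 0.0202 in w1118). wde, a cofactor of histone methylation, fell in orco2 (adjusted p = 0.00618). The list's median log2 fold change was 0.15 in orco2 and 0.25 in w1118, against -0.01 and 0.04 over all features. The 8 calls in orco2 became 2 and 4 without orco2 day 40 replicate 1 and replicate 2 and 5 without either w1118 day 3 library. The 5 calls in w1118 became 0 and 1 without w1118 day 3 replicate 1 and replicate 2, 3 and 1 without w1118 day 40 replicate 1 and replicate 2, and 12 and 14 without orco2 day 3 replicate 1 and replicate 2.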

How the data were processed

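Heads of 4 groups, 2 libraries each, are described here, and the gut libraries were not used. The deposited head table holds whole-number counts per gene and per annotated insertion. Per the labels, poly(A) RNA was used. Per the submitters' processing notes, which name tools without settings, fastp, HISAT2, featureCounts and DESeq2 were run and the genome build was dm6. Whether multi-mapping reads were counted is not given in the sources used here. Of the counts between 1 and 20, 54.5% to 60.5% per library were even, so a fit on halved counts was an alternative. Whether both mates of a read pair were counted is not given in the sources used here. If they were, a fragment gave up to 2 counts, counting intervals would be wider than printed and folds against the floor smaller. The number of per-sample columns with no sample was 0.

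Counts were tested with edgeR 4.0.16 (R 4.3.3): the quasi-likelihood test of a group-means model over the 8 libraries, after TMM scaling and a low-count filter (filterByExpr per group, minimum 10). P-values were adjusted by Benjamini-Hochberg over the 12243 tested features, and adjusted p under 0.05 counts as a call. Errors of log2 fold changes are standard errors. Folds against a group at 0 use a floor of 3 counts over the group. Counting intervals are 95% Poisson intervals and, like the floor, cover counting error only. The steps were tested on simulated data. Positions come from the Ensembl release 115 annotation, whose assembly is that of dm6. Total counts per library were 27082849 to 33932201.

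The text names the 10 most abundant insertions, the most extreme calls of each comparison in either direction and the insertions most like the one that differed most. Members and lists were chosen with earlier results of these data known. Alternatives were DESeq2 1.42.0 size factors and Wald test, no filter, only the groups compared, a replicate block, halved counts and each library left out.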

Additional observations from a re-analysis of the deposited data

How the results depend on the processing

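With 2 libraries a group the precision is limited, and most counts of calls moved with the samples in the fit. With only the groups compared in the fit, insertion calls between genotypes numbered 142 at day 40 and 41 at day 3, and calls with age 33 in orco2 and 111 in w1118. The interaction gave 10 insertion calls without the filter and 9 by the DESeq2 Wald test. Leaving out each library gave 22 to 146 insertion calls between genotypes at day 40, 29 to 127 at day 3, 11 to 93 with age in orco2, 11 to 100 in w1118 and 0 to 14 for the interaction. For the piRNA, siRNA and heterochromatin genes, calls at day 40 numbered 4 without the filter, 5 by the Wald test, 10 with only the groups compared, 1 with the replicate block (mino, higher) and 5 with halved counts. At day 3 they numbered 5, 5 and 0 under the first 3 of these settings. With age they numbered 3 in orco2 with only the groups compared, and 8, 9 and 13 in w1118 without the filter, by the Wald test and with only the groups compared. Leaving out each library gave 0 to 11 at day 40, 0 to 7 at day 3, 2 to 10 with age in orco2 and 0 to 14 in w1118.

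The age difference of Doc{}CHKov1[Doc1420] in orco2, -0.14 on the log2 scale, ran from -0.81 without orco2 day 3 replicate 2 to 1.35 without its replicate 1 (adjusted p = 0.000494), and the cause was not tested. With the replicate block, insertion calls numbered 70 at day 40, 57 at day 3, 55 with age in orco2, 47 in w1118 and 0 for the interaction. Correlations of same-numbered deviations were -0.072 to 0.020. With 2 libraries a group, they cannot show whether the replicate numbers mark a shared batch.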
